A study of Mus musculus with 24 samples.

Results

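Endothelial cells sorted from the aorta of mice lacking galectin-3 (KO) and of wild-type controls (WT), all fed standard chow, were compared on 6 of the 24 single-colour Agilent whole mouse genome arrays of the series, 3 arrays labelled KO and 3 labelled WT. The arrays were taken by their labels for tissue, diet and strain, and the comparison itself was chosen with earlier results of these data known. KO mice carried a homozygous deletion within Lgals3 on a C57BL/6 background (B6.Cg-Lgals3 tm1Poi/J), and WT mice were C57BL/6J. All were males that stayed for 8 weeks on chow with 12% of its calories from fat, starting at an age of 8 weeks. In each of 3 independent trials the aortae of several mice of a strain were pooled and digested, live CD105+/CD45- cells were sorted, and their amplified RNA was hybridised. CD105 is endoglin, a surface protein of endothelial cells, and exclusion of CD45+ cells is meant to leave out leukocytes. The KO and WT arrays of a trial lay on 1 slide. The remaining arrays hold the same strains on a high-fat diet (HFD), in aorta or in skeletal muscle, and muscle on chow.

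Each array is thus a pool of mice, and the KO is a single congenic line. Such a line keeps DNA of the donor strain around the targeted gene, so that an effect of the deletion and an effect of the flanking DNA cannot be told apart in these arrays. Nothing in the labels gives cell purity for an array. In sorted bulk cells, fewer cells of a type and less RNA per cell also cannot be told apart. The p-values below measure the spread between 3 pools of a strain.

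Galectin-3 is a lectin that binds galactose-containing glycans on cell surface and matrix glycoproteins and can cross-link them into lattices. It also binds advanced glycation end products (AGEs), the sugar-modified proteins that accumulate in diabetes, and it is released by macrophages and other cells. Inside the cell it takes part in pre-mRNA splicing. The aortic endothelium is the lining of a large artery, where nitric oxide production, Notch signalling and a quiescent, non-adhesive surface are characteristic. The comparison on chow shows how the strains differ before any high-fat feeding.

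Levels are given as log2 of the processed signal over the 75th percentile of the same array, so that 0 is the level of that percentile. This percentile lay between 3686 and 5579 over the 6 arrays, 62.8% to 65.7% of the spots were well above background, and no spot was saturated. Pearson correlations between pairs of these arrays, over probes, lay between 0.913 and 0.947. All 20 endothelial markers, among them Cdh5 (VE-cadherin), Pecam1, Kdr and Tie1, were well above background on all 6 arrays. Fibroblast and adipocyte markers were so too, 12 of 12 and 13 of 14. The HFD arrays of trial 1, used only for comparison, stood apart from their labels at some genes. For Trim13, the named gene with the largest difference on chow, the arrays labelled KO in that trial stood at 0.13 in aorta and 0.60 in muscle, beside 0.39 and 0.58 on the WT arrays of their slides. The other WT arrays of the series lay between 1.18 and 2.13, and the other KO arrays at -1.76 or lower. Not every probe did so. In aorta on HFD in trial 1, Fkbp5 differed by 1.73 and the probe TC1655445 by -3.14, in the same direction as on chow. In muscle on HFD in trial 1 both went the opposite way, Fkbp5 by -0.79 and TC1655445 by 2.73.

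The probe for Lgals3 itself was brighter on the arrays labelled KO. It stood at 2.80, 2.24 and 2.64 on the WT arrays and at 3.88, 4.53 and 4.16 on the KO arrays of trials 1, 2 and 3. The groups did not overlap, and each KO array was above the WT array of its slide. KO minus WT came to 1.63 log2 units with a standard error of 0.34 (limma adjusted p = 0.477), and a 2-sided exact permutation test of 3 against 3 arrays gave p = 0.1, the smallest it can give. Whether this probe lies within the deleted part of the gene was not analysed here, so the value does not check the labels. KO and WT below mean the arrays so labelled.

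Few probes passed an adjusted p threshold between the strains on chow, and the test could find only large changes. In simulated data with the spread of these probes, 0% of changes of 1 log2 unit and 14% of changes of 2 passed. The same simulation gave 7 false calls among unchanged probes. The count of calls therefore does not measure how much the strains differ. Of 24413 probes tested, 3 passed a Benjamini-Hochberg adjusted p of 0.05 in limma, which is 0.0123%. The calls were Ifi44l and Tnfrsf9, which rose in KO (0.00819%), and the probe TC1614082, which has no gene name in the gene table used and fell (0.0041%). With the trial, which is the slide, as a block in the fit, the adjusted p of each of the 3 was 0.506 and 0 probes were called. An unadjusted p under 0.05 was reached by 937 probes (3.84%), 509 of them higher in KO (2.08%) and 428 lower (1.75%). Of all probes 53.7% had a difference above 0, the median difference was 0.03, and the median standard error was 0.44.

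Ifi44l (interferon-induced protein 44 like) belongs to the genes switched on by type I interferon. It stood at -8.16, -8.57 and -8.61 on the WT arrays, on none of which it was well above background. On the KO arrays it stood at -3.26, -2.55 and -1.74, well above background on all 3. The groups did not overlap. Since the WT values lay below detection, their spread and the size of the gap are not measures of expression, and the limma p rests on both. KO exceeded WT by 5.93 log2 units with a standard error of 0.45 (limma adjusted p = 0.0222), and its second probe gave 2.98. Set against the dimmest signals well above background on the WT arrays, the level in KO was at least 12.7-fold higher, a bound that takes the place of a fold where a group is below detection.

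Tnfrsf9 encodes the costimulatory receptor CD137 (4-1BB) of the tumour necrosis factor receptor family. Its levels were -7.42, -8.38 and -8.36 in WT, not well above background on any array, and -2.44, -2.27 and -2.68 in KO, well above it on all. The 3 KO values lay close together and did not overlap WT, whose spread is again that of signals below detection. The difference was 5.59 (standard error 0.38, limma adjusted p = 0.0215), at least 13.2-fold higher in KO. A second probe for the gene was too dim to be tested. Elsewhere the difference was smaller. In muscle on chow it was 2.28 (unadjusted p = 0.0762 in limma). On HFD the called probe was too dim to be tested, with differences by trial of 0.24, 0.42 and 1.67 in aorta and 0.44, 1.95 and 1.56 in muscle. In aorta the difference on chow exceeded that on HFD by 4.81 (unadjusted p = 0.00579 in limma), which did not pass the adjusted threshold. TC1614082 went the other way, with 2.04, 2.07 and 2.37 in WT and -2.98, -2.22 and -2.74 in KO. It was the only call that was well above background on all 6 arrays, and it was 27.8-fold lower in KO (-4.80, standard error 0.34, limma adjusted p = 0.0215).

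The sequence upstream of Ifi44l is shown beside that of 2 other interferon-stimulated genes, because it was called and they were not. Capitals mark TTTC followed by any 2 bases and TTTC again, the core of the interferon-stimulated response element, sought on both strands with overlaps counted. The 250 bases before the annotated start, 5′ to 3′ on the strand of the gene, are from RefSeq (GRCm38.p6).
Ifi44l, chr3:151762892-151763141 (minus strand): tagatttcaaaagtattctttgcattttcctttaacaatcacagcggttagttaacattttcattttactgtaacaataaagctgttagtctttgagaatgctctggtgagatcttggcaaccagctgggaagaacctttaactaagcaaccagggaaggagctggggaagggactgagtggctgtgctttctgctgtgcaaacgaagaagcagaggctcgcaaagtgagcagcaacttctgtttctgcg
Isg15, chr4:156200819-156201068 (minus strand): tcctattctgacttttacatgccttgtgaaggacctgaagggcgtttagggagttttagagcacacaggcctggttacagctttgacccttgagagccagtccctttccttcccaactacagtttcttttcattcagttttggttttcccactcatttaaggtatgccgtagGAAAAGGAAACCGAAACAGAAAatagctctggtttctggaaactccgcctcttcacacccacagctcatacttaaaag
Ifit1, chr19:34640639-34640888 (plus strand): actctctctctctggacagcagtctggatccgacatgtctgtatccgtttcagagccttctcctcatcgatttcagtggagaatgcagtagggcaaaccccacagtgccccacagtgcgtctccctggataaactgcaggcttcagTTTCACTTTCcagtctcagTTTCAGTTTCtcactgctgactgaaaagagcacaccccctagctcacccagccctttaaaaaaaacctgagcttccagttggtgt
The window of Ifi44l holds no match, that of Isg15 holds 3 overlapping matches on the opposite strand and that of Ifit1 holds 2. The same motif is in 978 of 32851 promoters of that length (2.98%) and in 11 of the 28 promoters that the table holds for the interferon list (39.3%). A missing match says only that these letters are not in this window.

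Isg15, a ubiquitin-like protein, and Ifit1, an RNA-binding protein, are induced by the same pathway, and neither passed the test. Isg15 stood at 0.30, 0.89 and -0.50 in WT and at 0.72, 1.34 and 0.92 in KO, and the groups overlapped. Its difference was 0.77, and that of Ifit1 was 0.36. Of the 27 tested members of the list, 18 lay above 0 with a median of 0.14, against 53.8% of 13460 genes above 0 and a median of 0.03. None of the 27 reached an unadjusted p under 0.05 in limma, a level reached by 2.99% of all genes. Without the WT array of trial 2 the median was 0.36, with 21 of 27 above 0 and 4 at an unadjusted p under 0.05. In that fit 2226 of all 24413 probes reached this level, against 937 with every array. A larger count is therefore not particular to this list. The largest differences were those of Oasl1 (1.16) and Rsad2 (1.06), antiviral enzymes, and the lowest those of Ifi44 (-0.88), the relative of Ifi44l, and Irf7 (-0.43). Ifi44l was not a member of this list.

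Beyond the calls, 342 probes (1.4%) had a log2 ratio of KO to WT above 1 in all 3 trials or below -1 in all 3, 172 of them higher (0.705%) and 170 lower (0.696%). Among the higher probes, 36 were not well above background on any WT array, and among the lower 50 were not so on any KO array. Only 98 of the 342 were well above background on all 6 arrays, and 138 had no gene symbol. The genes with the largest differences in this set, each read on its brightest probe, are given here as values and not as changes, since apart from Ifi44l and Tnfrsf9 none passed the test. The plot of these genes by array shows that most were dim in the strain with the lower level.

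**Figure D1:**
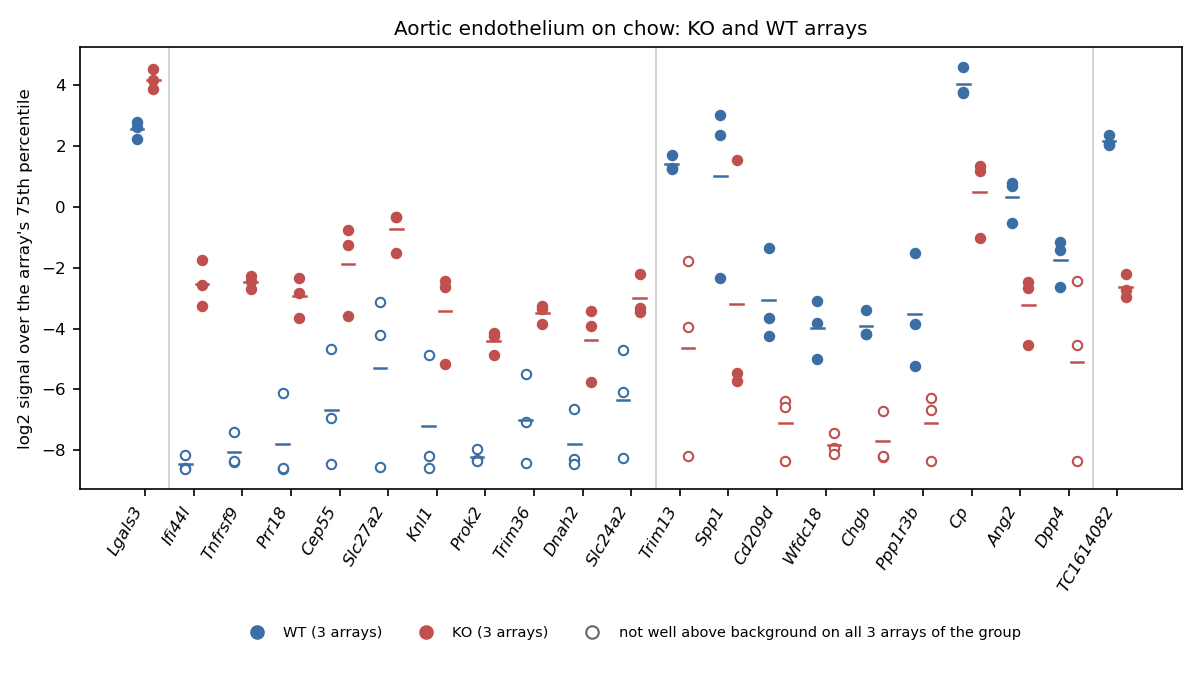
Log2 signal over the 75th percentile of the array for Lgals3, the 10 genes with the largest positive difference, 9 of the 10 with the largest negative difference, and TC1614082, on the 3 WT (blue) and 3 KO (red) arrays; horizontal bars are group means and open circles mark a group in which the probe was not well above background on all 3 arrays. TC1614082 shows tight groups far apart, as do Ifi44l and Tnfrsf9, whose WT values lay below detection, while Trim13, Spp1 and Dpp4 show a wide spread in KO.

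Of the genes with positive differences after the calls, Cep55, which acts in the final separation of daughter cells, stood at -4.68, -6.93 and -8.44 in WT and at -3.60, -1.23 and -0.76 in KO, a difference of 4.82 (standard error 1.09, limma adjusted p = 0.574). Knl1, a scaffold of the kinetochore, differed by 3.80 (standard error 1.14), and 1 WT array at -4.85 lay above 1 KO array at -5.17. Prok2, a secreted prokineticin, came closest to the threshold of these genes, with -7.96, -8.31 and -8.36 in WT, not well above background on this probe, and -4.26, -4.86 and -4.15 in KO (3.79, standard error 0.34, limma adjusted p = 0.0583). Its second probe was well above background on 1 WT and 2 KO arrays, too few to be tested, and its differences by trial were 3.66, -1.34 and 1.54, so that the probes did not give 1 direction. Prokr1, a receptor for prokineticins that was picked out after its values had been seen, differed by -2.73 (standard error 0.54, limma adjusted p = 0.414).

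Slc27a2, a fatty acid transporter and acyl-CoA synthetase, differed by 4.57 (standard error 1.31), with WT values from -8.56 to -3.13 and KO values from -1.51 to -0.33. Prr18, below detection in WT, differed by 4.84 (standard error 0.74), at least 9.48-fold. Dnah2, a heavy chain of ciliary dynein, differed by 3.44 (standard error 0.74) on 1 probe. Its second probe, well above background on 2 arrays of each strain and so not tested, gave 0.15, -3.02 and 2.84 by trial, which leaves the direction for the gene unsettled. Trim36, a ubiquitin ligase, differed by 3.51 and Slc24a2, a sodium, calcium and potassium exchanger, by 3.34. The adjusted p of these 5 genes lay between 0.239 and 0.891 in limma.

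The largest difference of all named genes was that of Trim13, a ubiquitin ligase of the endoplasmic reticulum. It stood at 1.70, 1.25 and 1.28 in WT and at -3.94, -8.18 and -1.76 in KO. Every KO array was at least 3 log2 units below every WT array, but the KO arrays themselves spanned more than 6. The difference was -6.03 (standard error 1.44, limma adjusted p = 0.62), and the second probe was not well above background on any of the 6 arrays. Cp, which encodes ceruloplasmin, the copper-carrying ferroxidase of plasma, was bright on every array, with 3.76, 3.78 and 4.603 in WT and -1.03, 1.34 and 1.19 in KO. The groups did not overlap, and the difference was -3.55 (standard error 0.67, limma adjusted p = 0.371), an 11.7-fold lower level. Ang2, a ribonuclease of the angiogenin family and not angiopoietin-2, stood at 0.78, -0.52 and 0.69 in WT and at -4.53, -2.46 and -2.65 in KO (-3.53, standard error 0.65, limma adjusted p = 0.357).

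Spp1, which encodes osteopontin, a secreted phosphoprotein of matrix and macrophages, showed how wide the spread of a large mean can be. It stood at -2.33, 3.04 and 2.38 in WT and at -5.45, 1.55 and -5.71 in KO. The groups overlapped, and the difference of -4.24 had a standard error of 2.20. Cd209d, a C-type lectin of myeloid cells, was not well above background on any KO array and differed by -4.03 (standard error 0.86), at least 7.2-fold lower. Wfdc18, a small secreted protein, Chgb, a granin of secretory granules, and Ppp1r3b, which targets protein phosphatase to glycogen, were also below detection in KO, with differences of -3.86, -3.79 and -3.58 and bounds of at least 3.86-fold, 3.99-fold and 5.24-fold lower. Dpp4, a peptidase that cleaves incretin hormones, differed by -3.38 on 1 probe and by -1.896 on another. The adjusted p of these 6 genes in limma lay between 0.215 and 1.

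A larger share of the probes near Lgals3 than of those elsewhere had a small p, a description for which no test was run. On chromosome 14, 50 of 644 probes (7.76%) had an unadjusted p under 0.05, against 2.36% to 3.88% on the other autosomes and the X chromosome. Within 5 Mb of the start of Lgals3 the count was 14 of 89 probes (15.7%), 7 in each direction. Within 10 Mb it was 17 of 176 (9.66%), and on the rest of the chromosome 33 of 468 (7.05%). With a width of 20 Mb it was 28 of 355 (7.89%) within and 22 of 289 (7.61%) beyond, so the larger share also ran along the rest of chromosome 14. On all other chromosomes together it was 570 of 18175 (3.14%). None of the 17 probes within 10 Mb passed the adjusted threshold. Positions are those of the gene table for GRCm38.p6 and served only for distances.

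The 17 probes included a cluster of ribonuclease genes 3.72 to 4.39 Mb from Lgals3, whose members differed in opposite directions. Rnase1, the pancreatic-type ribonuclease that endothelial cells secrete, stood at -3.72, -4.15 and -5.17 in WT and at -1.32, -1.68 and -1.80 in KO (2.75, standard error 0.44, limma adjusted p = 0.271). Ang, angiogenin, stood at 2.72, 1.62 and 2.32 in WT and at 0.91, 0.06 and -0.48 in KO (-2.06, standard error 0.48). Neither gene had overlapping groups. Ang4 differed by -3.11 (standard error 0.50), close to Ang2. Angiogenin genes are related copies, and a probe for one may read another, which was not tested, so their separate values are uncertain. Rnase4 differed by 0.55 and 0.54 on its probes.

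Further along lies Rpgrip1, a protein of the photoreceptor cilium. The first of its probes stood at 3.27, 2.43 and 2.94 in WT and at 0.94, -0.08 and -0.06 in KO (-2.605, standard error 0.42, limma adjusted p = 0.271), and the other gave -2.48. Its neighbour Supt16, a histone chaperone subunit, was higher in KO by 1.199 (standard error 0.31). Beside Lgals3, Gch1 (GTP cyclohydrolase, which makes the cofactor of nitric oxide synthase) was higher by 1.64 (standard error 0.52), Ktn1 (kinectin) by 1.24 and Cdkn3 (a cell cycle phosphatase) by 1.42. Pnp, a purine enzyme, differed by -3.04 on 1 probe and by 0.05 and 0.15 on its others, and Oxa1l, a mitochondrial insertase, by -1.62 on 1 probe and by 0.57 and -0.32 on its others. Such a gap between probes of a gene leaves the direction for the gene unsettled. Trim13 lies on the same chromosome at 14.2 Mb.

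**Figure D2:**
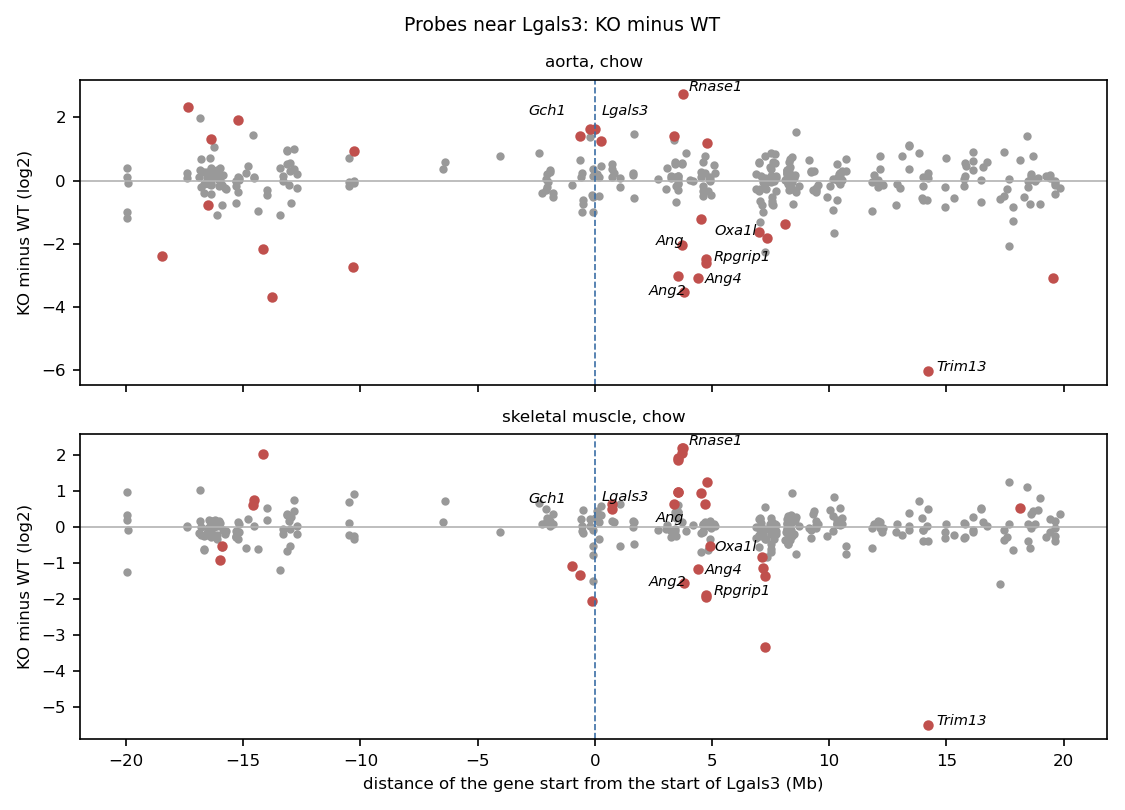
Difference of KO minus WT (log2) of each tested probe against the distance of its gene's start from the start of Lgals3 (Mb), in aortic endothelium on chow above and in muscle endothelium on chow below; red points have an unadjusted p under 0.05 in limma. In both tissues the red points gather within 5 Mb of Lgals3 (15.7% of probes in aorta and 24.4% in muscle), and Trim13 lies lowest.

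The same region stood out on arrays that took no part in the comparison. In muscle endothelium on chow, 21 of 86 probes within 5 Mb (24.4%) had an unadjusted p under 0.05. The share was 6.62% on the rest of chromosome 14 and 2.99% on other chromosomes. In aorta on HFD the shares in that order were 7.95%, 2.6% and 0.979%, and in muscle on HFD 12.6%, 3.05% and 1.5%. Aorta and muscle of a trial and strain may come from the same mice, so that the tissues are not independent samples of the strains.

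The 342 probes past 1 log2 were then read in those other comparisons of KO with WT, none of which shares an array with aorta on chow. In aorta on HFD 226 of them were tested, and 27 (11.9%) had an unadjusted p under 0.05 in the same direction, against 0.842% of all probes tested on both diets. In muscle on chow it was 37 of 215 (17.2%, against 2.03%), and in muscle on HFD 26 of 194 (13.4%, against 1.16%). In the opposite direction it was 3 in aorta on HFD (1.33%, against 0.566%), 4 in muscle on chow (1.86%, against 1.36%) and 5 in muscle on HFD (2.58%, against 0.655%). Without trial 1 the counts in the same direction were 33 in aorta on HFD (14.6%, against 0.804%) and 42 in muscle on HFD (21.6%, against 1.84%). In the opposite direction they were then 3 (1.33%, against 0.562%) and 9 (4.64%, against 1.07%). Trial 1 was set aside because its HFD arrays did not separate the strains at genes of this set such as Trim13. A higher count without it is thus partly built in. At any p, the share in the same direction went from 65.5% to 68.6% in aorta on HFD and from 59.8% to 55.7% in muscle on HFD. In aorta on HFD 0 probes passed the adjusted threshold of limma and 514 (2.06%) had an unadjusted p under 0.05. In muscle on chow it was 1 (0.00405%) and 981 (3.98%), and in muscle on HFD 0 and 615 (2.51%).

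A small set of genes differed in the same direction in every comparison. Of the 149 among the 342 probes that were tested in every comparison, 15 (10.1%) had an unadjusted p under 0.05 in all 3 others, against 0.0773% of all probes so tested. They stand for 6 named genes (Ifi44l, Trim13, Cp, Ang4, Rpgrip1 and Fkbp5) and 8 probes without a symbol. Of the 11 genes that did so in 2 or 3 others, 7 lie on chromosome 14, which holds 451 of 13459 tested genes (3.35%). The 7 include Ang2 and Ang4, whose probes may read one another, and Oxa1l, whose probes differed in direction, so they are not 7 separate, settled genes. Ifi44l differed by 5.93 in aorta on chow, 4.70 in aorta on HFD, 5.97 in muscle on chow and 4.43 in muscle on HFD. Per trial, its HFD differences were 1.35, 5.05 and 7.70 in aorta, so that the arrays of trial 1 were closest together. Cp differed by -3.55, -2.30, -2.89 and -2.48 in the same order. In aorta on HFD the difference of Cp was 0.14 in trial 1, against -3.62 and -3.42 in the other trials.

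Fkbp5, a co-chaperone of the glucocorticoid receptor and a target of it, lies on chromosome 17. Its WT values on chow were -2.46, -2.71 and -2.48 and its KO values -0.84, -1.13 and -1.23, tight and apart. The differences were 1.48 (standard error 0.30, limma adjusted p = 0.461) in aorta on chow, 1.65 in aorta on HFD, 1.31 in muscle on chow and 2.10 in muscle on HFD. In the last, the trials gave -0.79, 3.41 and 3.67, and without trial 1 the difference was 3.54. The probe TC1668068, without a gene name, was the only call in muscle on chow (5.21, limma adjusted p = 0.0127). In aorta on chow it stood at -4.72, -3.08 and -6.17 in WT and at -0.003, 0.75 and -0.99 in KO, a difference of 4.58 (standard error 0.82, limma adjusted p = 0.346).

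**Figure D3:**
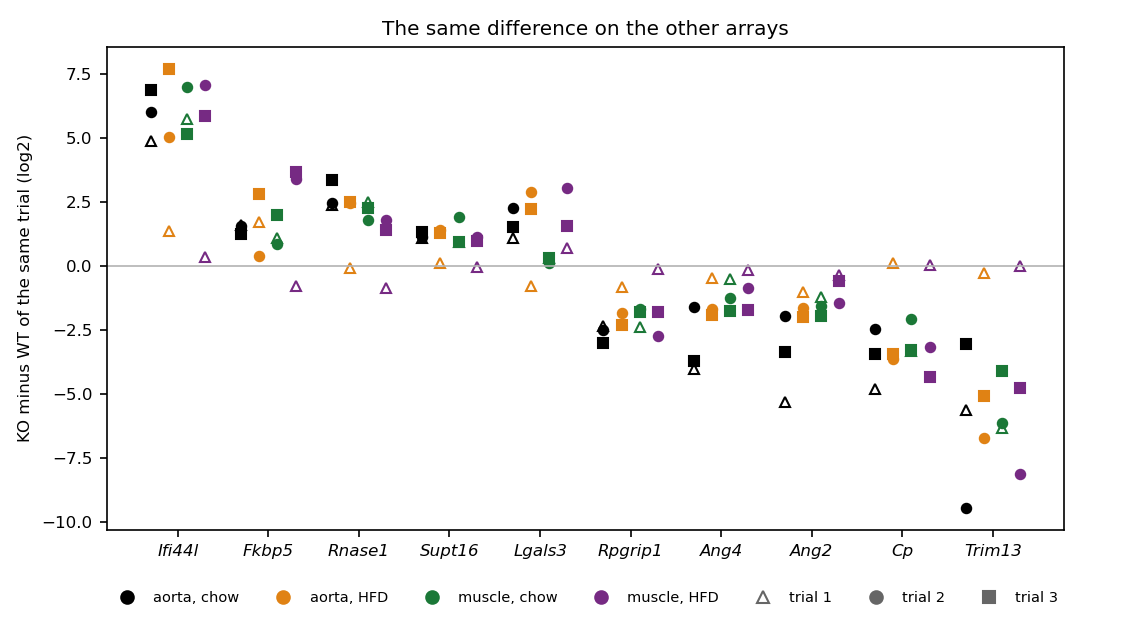
Log2 difference of the KO array minus the WT array of the same trial for 10 genes, in aorta and muscle endothelium on chow and on HFD (colours); triangles are trial 1, circles trial 2 and squares trial 3. The HFD triangles of Cp and Trim13 lie near 0 (0.14 and -0.26 in aorta) and that of Ifi44l in aorta at 1.35, while the chow values of these genes lie away from 0 in all 3 trials.

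Whether a strain difference was larger on chow than on HFD, or in aorta than in muscle, was tested as an interaction in limma. For diet 0 of 25865 probes passed the adjusted threshold, with 478 at an unadjusted p under 0.05 (1.85%). For tissue 0 of 26160 passed, with 810 (3.1%). Prr18 differed by 4.84 on chow and -0.40 on HFD in aorta, with an unadjusted p of 5.84e-04 for the diet. Lgals3 differed by 1.63 in aorta and 0.26 in muscle on chow, with an unadjusted p of 0.00606 for the tissue. The adjusted p of both interactions was 1. On HFD the difference of Lgals3 was 1.45 in aorta and 1.77 in muscle, so it was not smaller in muscle on that diet.

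Markers of the cell types that the sort could hold differed from trial to trial. All 20 endothelial markers lay above 0 in KO minus WT, with a median of 0.46, and 0 reached an unadjusted p under 0.05 in limma. The median was 1.03 in trial 1, -0.21 in trial 2 and 0.65 in trial 3, and the WT array of trial 2 held the most endothelial signal of its strain. The summed endothelial signal, in units of the 75th percentile, reached 404, 684 and 359 on the WT arrays of trials 1, 2 and 3 and 769, 617 and 551 on their KO arrays. Tie1, an endothelial receptor, had the largest difference (0.95) and Plvap, a diaphragm protein, the smallest (0.10). Without trial 1 the median was 0.17. Without the WT array of trial 2 it was 0.77 and 3 markers reached an unadjusted p under 0.05. Leaving out that array also took the count over all probes from 937 to 2226.

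Macrophage markers went the other way. Of 13 tested, 2 lay above 0 and the median was -1.098, with Mrc1 (mannose receptor, -1.87) and F13a1 (-1.098) at an unadjusted p under 0.05 and lower in KO, and Mertk (1.103) higher. Their summed signal by trial reached 9.67, 14.1 and 8.17 on WT arrays and 7.06, 12.5 and 5.46 on KO arrays, lower in KO in each trial while the ranges overlapped. Adgre1 (F4/80) stood at -3.43, -1.77 and -1.67 in WT and at -3.50, -3.39 and -8.33 in KO. Fcgr1 and Itgam were too dim to be tested. The CD45 gate should remove these cells. Cd209d and Spp1, among the genes with the largest negative differences, are expressed by such cells, and the part of these markers in their differences was not tested.

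The KO array of trial 1 held the most fat and blood signal. Platelet and erythroid markers summed to 15.7, 14.9 and 9.21 in WT and to 65.7, 18.9 and 11.7 in KO, and all 8 tested lay above 0 with a median of 1.15. Gp9, a platelet receptor (2.08), Alas2, an enzyme of haem synthesis (1.86), and Ppbp (1.63) had an unadjusted p under 0.05. Adipocyte markers summed to 238, 290 and 304 in WT and to 577, 273 and 295 in KO, and all 13 tested lay above 0 with a median of 0.52. Without the KO array of trial 1, the adipocyte median was -0.04 with 6 of 13 above 0, and that of platelet and erythroid markers was 0.56 with 6 of 8 above 0 and 1 at an unadjusted p under 0.05. Brown adipocyte markers lay above 0 in 6 of 8 tested, with a median of 1.11 (0.36 without that KO array). Cidea (1.34), Cox7a1 (1.33) and Ucp1 (1.26) led, and 1 member had an unadjusted p under 0.05 in limma. Ppargc1a went the other way (-0.94), though another of its probes gave 0.04. The list summed to 43.8, 33.4 and 14.97 in WT and to 132, 27.7 and 48.0 in KO. Fibroblast markers had a median of -0.15 with 3 of 12 above 0, which without trial 1 was 0.13 with 9 of 12 (745, 447 and 535 in WT and 581, 564 and 495 in KO). Lymphatic markers had a median of -0.37 with 1 of 9 above 0, the exception being Flt4 (1.07). Smooth muscle, pericyte and lymphocyte markers had medians of 0.13, 0.20 and 0.08 (the last -0.32 without that KO array), and of the 3 mesothelial markers tested the keratin Krt8 (2.07) had an unadjusted p under 0.05.

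**Figure D4:**
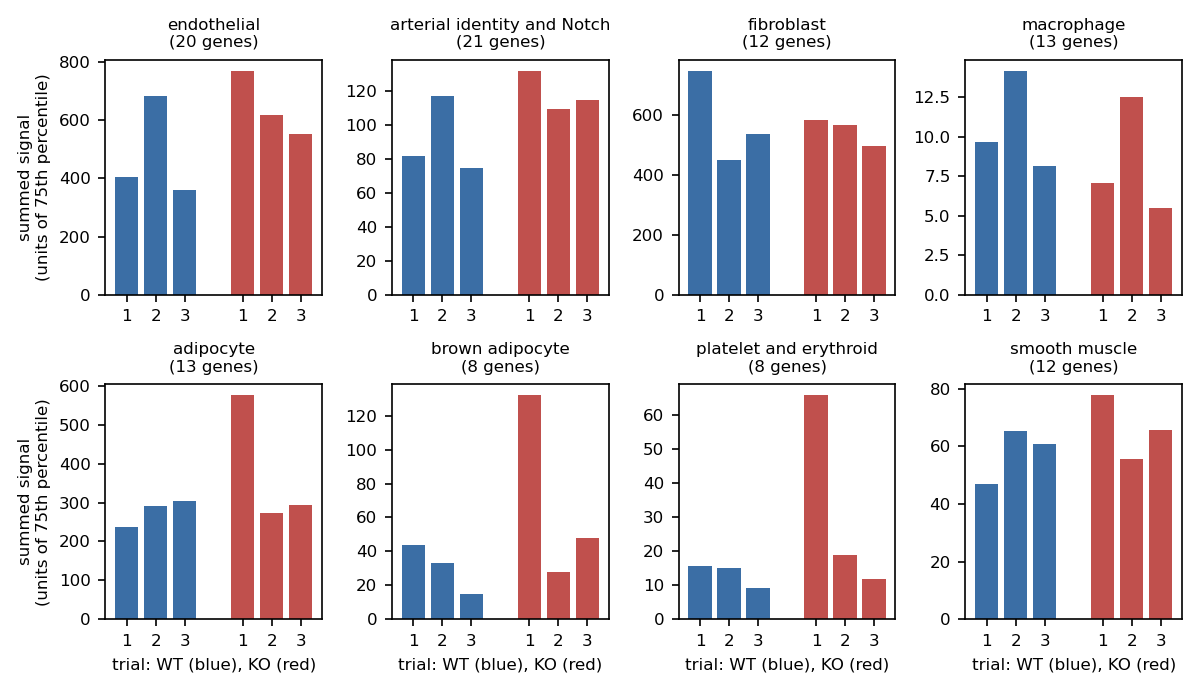
Summed signal of the markers of 8 cell types, in units of the 75th percentile of the array, on the WT (blue) and KO (red) arrays of trials 1 to 3; bars start at 0 and each panel has its own scale. The KO array of trial 1 stands highest for adipocyte, brown adipocyte and platelet and erythroid markers (577, 132 and 65.7), and the WT arrays of trials 1 and 3 are lowest for endothelial markers (404 and 359).

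Genes of arterial identity and Notch signalling followed the endothelial markers. Of 21 tested, 17 lay above 0 with a median of 0.56, and 0 reached an unadjusted p under 0.05 in limma. The highest were Cxcr4, a chemokine receptor (1.07), and Notch4 (0.94), and the lowest Hey2 (-0.30) and the venous factor Nr2f2 (-0.29). Notch4 stood at 1.49, 2.53 and 1.83 in WT and at 3.40, 2.51 and 2.74 in KO, so that the WT array of trial 2 was level with KO. Without trial 1 the median was 0.18. Without the WT array of trial 2 it was 0.93 and 7 members reached an unadjusted p under 0.05. Over all probes 2226 of 24413 did so in that fit. The medians by trial, 1.22, -0.35 and 0.60, moved with the summed endothelial signal, and its part in them was not tested.

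For the nitric oxide and caveolae genes the median was 0.08, with 10 of 17 above 0. Nos3, the endothelial nitric oxide synthase, differed by 0.59 and Cav1, the main caveolar coat protein, by 0.22. Gch1 alone had an unadjusted p under 0.05, at -1.09, 0.48 and -1.08 in WT and 1.54, 1.05 and 0.65 in KO, and the lowest value was that of Cav3, the muscle caveolin (-1.60). Leukocyte adhesion genes had a median of 0.27 with 9 of 14 above 0. F11r (0.66) was highest and Alcam (-1.19) lowest, and Vcam1, Icam1 and Sele, the classical receptors of inflamed endothelium, differed by 0.35, -0.21 and 0.10.

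The list medians of galectins and their partners lay between 0.03 and 0.19. In the simulated data no change of 1 log2 unit passed, so single members could differ by that much unseen. Of 8 galectin genes tested, 5 lay above 0 with a median of 0.19. Lgals1, the other abundant galectin of endothelium, stood at 6.09, 4.58 and 5.32 in WT and at 5.28, 5.67 and 4.92 in KO, a difference of -0.04, and Lgals9 differed by -0.16. Among AGE receptors and scavenger receptors, 7 of 14 lay above 0 with a median of 0.03. Olr1, which takes up oxidised lipoprotein, was lowest (-0.95) and Megf10 highest (0.86), and Cd36, the fatty acid and thrombospondin receptor, differed by 0.53 without overlap of its groups. Ligands of galectin-3 and enzymes that branch its glycans had a median of 0.03 with 12 of 20 above 0, from Tlr4 (-0.99) to Itga3 (0.51). Splicing partners had a median of 0.06 with 8 of 14 above 0. Of these 3 lists, 0 members reached an unadjusted p under 0.05 in limma.

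Cell cycle genes lay mostly above 0, in 23 of 25, with a median of 0.44. Ccnb1, cyclin B1, stood at -2.45, -7.02 and -4.18 in WT and at -3.001, -0.02 and -0.93 in KO, a difference of 3.23 (standard error 1.23, unadjusted p = 0.0333 in limma). Birc5 (survivin), at 1.49, also had an unadjusted p under 0.05, and Top2a (topoisomerase) and Mki67 (Ki-67) differed by 1.86 and 1.16. The order of the trials differed from that of the endothelial markers, with medians of -0.08, 0.58 and 0.56. In trial 1 the KO values of Ccnb1, Mki67 and Birc5 were below those of WT. Respiratory chain and fatty acid oxidation genes lay above 0 in 24 of 27, with a median of 0.31, which without the KO array of trial 1 was 0.14 with 19 of 27. Ucp2, a mitochondrial uncoupling protein, stood at -1.06, -0.60 and -1.15 in WT and at 0.92, -0.34 and -0.04 in KO (1.12, standard error 0.42, unadjusted p = 0.0324 in limma), and Cpt1b (1.45) and Cox7a1 (1.33), isoforms of muscle and brown fat, were highest.

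Insulin signalling and glucose entry genes had a median of 0.13 with 15 of 23 above 0, a direction that turned without the KO array of trial 1 (-0.105, with 10 of 23). Slc2a4 (Glut4), the insulin-regulated glucose carrier, stood at 0.03, 0.86 and 0.38 in WT and at 2.62, 0.65 and 1.65 in KO. Its highest value was on the KO array that also held the most adipocyte signal, though Slc2a4 is itself among those markers. It differed by 1.22 (standard error 0.54), and Irs1, an insulin receptor substrate, by -0.79. G6pc, the catalytic subunit of glucose-6-phosphatase, differed by -1.02 with an unadjusted p under 0.05. Haemostasis and coagulation genes had a median of 0.12 with 13 of 22 above 0, from F13a1 (-1.098) and F3, tissue factor (-0.70), to Plau (1.85) and F10 (2.34). Without trial 3 that median was -0.15 with 9 of 22 above 0, and without the KO array of trial 1 it was -0.03. Of their 36 members 14 were too dim to be tested, among them fibrinogen and plasminogen.

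Matrix genes were divided. Basement membrane genes had a median of 0.00 with 11 of 21 above 0. Col4a2, a chain of the major type IV collagen, differed by 0.84, and the minor chains Col4a5 and Col4a6 by -1.36 and -0.89. An unadjusted p under 0.05 was reached by 1 member in each direction, Col4a2 being the higher. Of 28 fibrillar collagen and elastic fibre genes 6 lay above 0, with a median of -0.17, but without trial 1 it was 23 of 28 with a median of 0.15. The medians by trial were -1.12, 0.75 and -0.36, and the summed fibroblast signal was likewise lower in KO in trials 1 and 3 and higher in trial 2. The fibroblast markers themselves include the fibrillar collagens Col1a1, Col1a2 and Col3a1, so this likeness is partly built in. Col11a1, a minor fibrillar collagen, did not follow the trials. It stood at -2.35, -2.43 and -2.14 in WT and at -4.55, -4.41 and -5.41 in KO (-2.48, standard error 0.38, limma adjusted p = 0.238). Its HFD difference was 0.15.

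**Figure D5:**
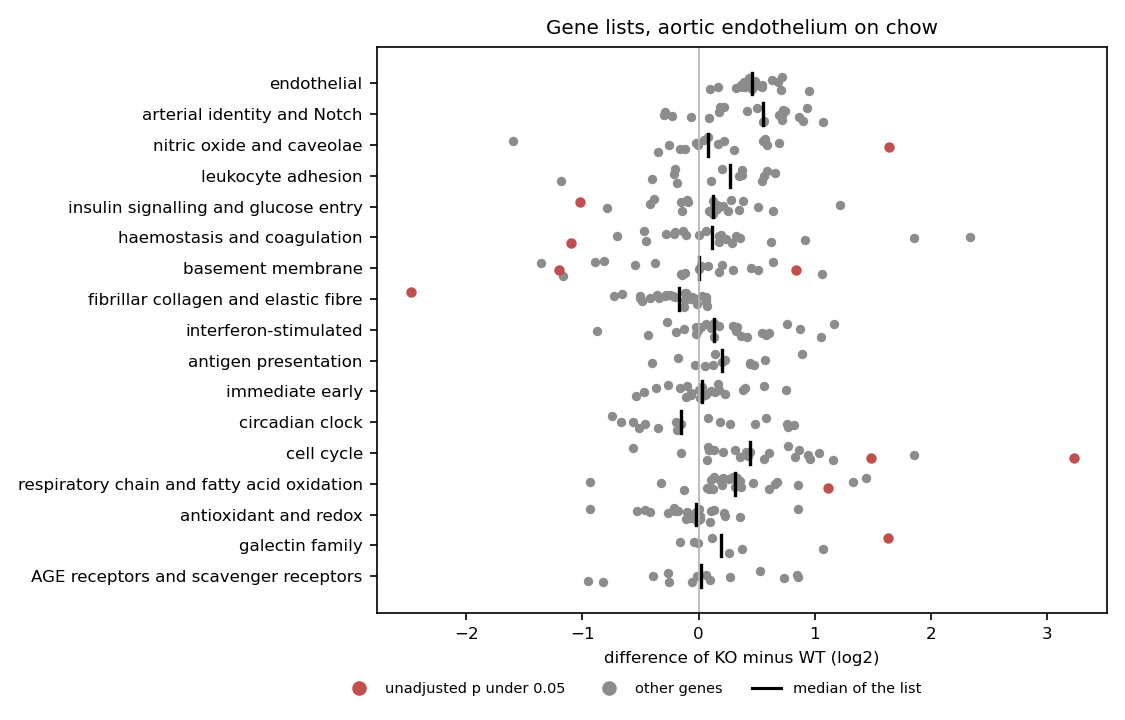
Difference of KO minus WT (log2) of each tested member of 17 gene lists in aortic endothelium on chow; red points have an unadjusted p under 0.05 in limma and black bars are list medians. Endothelial, arterial and cell cycle genes lie mostly to the right of 0 (medians 0.46, 0.56 and 0.44), fibrillar collagens to the left (-0.17, though 0.15 without trial 1), and most other medians lie within 0.3 of 0.

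Antigen presentation genes had a median of 0.20 with 10 of 13 above 0, immediate early genes 0.03 with 13 of 23, circadian clock genes -0.16 with 8 of 17 and antioxidant genes -0.02 with 11 of 25. In the clock list, Per2 differed by 0.76 and Arntl (Bmal1) by -0.35. Transcripts that the study had picked from these samples for their response to HFD had a median of -0.37 with 11 of 27 above 0 (-0.87 without trial 2), and are no independent evidence of a direction. Among them, Tnfrsf11b (osteoprotegerin) differed by -1.87 and Gp9 by 2.08. Markers of cardiomyocytes had a median of 0.54 with 5 of 7 above 0, which without trial 3 was -0.003. Those of skeletal muscle fibres (6 of 11) and of Schwann and neural cells (4 of 6) had medians of 0.17, and both were -0.08 without the KO array of trial 1. Y-linked genes had a median of -0.06 with 0 of 4 above 0. Of the 34 list medians, 17 changed sign in at least 1 of 5 fits that left out a trial, the WT array of trial 2 or the KO array of trial 1. No list held a probe that passed the adjusted threshold in limma. Over all probes, the KO and WT arrays did not overlap for 1604 (6.57%), 881 of them higher in KO (3.61%) and 723 lower (2.96%).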

How the data were processed

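Arrays were read by Agilent Feature Extraction 10.5.1.1 (9.1 in the submitters' notes), whose processed intensities, per the file headers, have the background subtracted and are not scaled between arrays. The deposited files also hold median spot and background intensities and other marks for spots well above background, saturated or outlying. In the log2 values that the authors deposited as a series matrix, 99.8% differ from the log2 processed intensities by 1 constant per array (tolerance 0.01). Positions in the array design are not used here.

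The log2 of each processed intensity over the 75th percentile of the 43379 non-control spots was computed, outlier spots were left out (173 tested probes then lacked a value on some of the 6 arrays) and replicate spots were averaged to 41174 probes. Of these, 27198 matched a symbol of the GRCm38.p6 gene table by accession. Probes well above background (at least 0.5 of their spots) on all 3 arrays of a group were tested, 24413 in all, on group means by lmFit and eBayes (limma 3.58.1 in R 4.3.3) with Benjamini-Hochberg adjustment. Scripts were tested on simulated data, in which 0%, 14%, 50% and 72% of changes of 1, 2, 3 and 4 log2 units were called, with 7 false calls. Where a group was below background on all its arrays, the bound sets the brighter group's mean against, per array, the higher of the dim probe's signal and the lowest signal of a probe well above background. Single values were compared by 2-sided exact permutation tests.

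Named are Lgals3, every call, the 10 genes highest and 10 lowest among those past 1 log2 in all 3 trials, and of each list the extremes and defining members. Of these, 1 of the 10 lowest is not reported here. Members, the 34 lists and the comparison itself were chosen with earlier results of these data known. The lists hold 612 entries, of which 16 had no probe and 6 symbols were updated. A gene is read on its brightest probe. The trial number of the labels marks a shared slide and so pairs the arrays. Deviations from the group means correlated at 0.225, 0.067 and 0.312 within trials and at -0.268 to 0.032 between them. Alternatives were normexp (offset 50, on median intensities, since mean intensities are not used here), quantile normalization, the deposited log2 table, other filters, blocks for trial and scan session, the methods' unpaired t-test, arrays and trials left out, and all 12 aortic arrays. The number of arrays limits the precision.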

Additional observations from a re-analysis of the deposited data

How the results depend on the processing

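The 3 calls rested on the settings. Quantile normalization and the deposited table kept all 3. Normexp and the filter for probes above background on every array left 1, TC1614082 (limma adjusted p = 0.0107 and 0.0117). No filter, the replicate block, the scan session as a block and the methods' t-test each left 0, with 1323, 1329, 1064 and 717 probes at an unadjusted p under 0.05. Leaving out a trial or any single array left 0 to 0, and the adjusted p of the called probes without a single array lay between 0.0666 and 0.164. In the fit of 12 aortic arrays 3 probes were called, none of them the same, and with the replicate block added, a setting chosen after seeing the data, 6 were called, among them Il7 (-2.50) and Lrrc73 (-2.04). Probes past 1 log2 in all 3 trials numbered 184 with normexp, 539 without a filter and 98 above background on every array, against 342. Both interactions gave 0 calls in each setting tried. Of 154 alternative values for named genes 0 reversed, 14 no longer passed the threshold and 140 kept their side of it. Of 306 alternative list medians 18 moved by more than the spread between trials, among them the circadian clock median, which was 0.05, 0.08 and 0.01 without trial 1, 2 or 3. Dim signals limit most of the largest differences, and the causes of the lost calls were not tested.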
